A study of Mus musculus with 24 samples.

Results

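The genes described here are 10 genes of the contractile apparatus that are used to recognise myofibroblasts: Acta2, Actg2, Tagln, Cnn1, Myl9, Tpm1, Tpm2, Lmod1, Myh11 and Des. They were taken by name from the 55291 genes counted in each library, with earlier results of these data known. All 10 were abundant enough to be tested among 16258 genes. Their levels were followed in cultured mouse pulmonary fibroblasts of 2 genotypes under 4 treatments. In WT cells, recombinant murine cold-inducible RNA-binding protein (rmCIRP) was followed by lower levels of 9 of the 10, where 24.1% of all genes were called lower. The changes ran from −14.8% for Acta2 to −54.3% for Lmod1, and Acta2 kept its call in 2 of 6 fits that each left out a library. The same 9 were lower when recombinant transforming growth factor (rmTGF-β1) was present, where 21.7% of all genes were called lower. None of the 10 was called changed by rmTGF-β1 alone in WT cells, and none by rmCIRP alone in cells labelled TLR4-/-. Of all genes, 12.4% were called in the former comparison and 0% in the latter.

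Myofibroblasts are fibroblasts that have taken on part of the contractile machinery of smooth muscle, and in the lung they are known for pulling on and depositing the collagen-rich matrix of scars. Their contractile genes are classically transcribed through serum response factor (SRF), which binds a DNA element called the CArG box together with coactivators (MRTF, myocardin) that respond to the state of the actin cytoskeleton, and TGF-β1 is the textbook inducer of this state. CIRP is an RNA-binding protein that, once outside cells, acts as a danger signal on innate immune receptors such as TLR4.

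The members fall into 4 roles. Acta2 and Actg2 encode the alpha and gamma smooth muscle actins, which form the thin filament, and Lmod1 (leiomodin) nucleates actin filaments in smooth muscle. Tpm1 and Tpm2 (tropomyosins), Tagln (transgelin) and Cnn1 (calponin) bind along those filaments. Myh11 is the heavy chain and Myl9 a regulatory light chain of smooth muscle myosin, the motor. Des (desmin) is a muscle intermediate filament protein that ties the contractile units together. In GENCODE release M21 (GRCm38), the thin filament genes lie at chr19:34241090-34255590 (Acta2), chr6:83512905-83536265 (Actg2) and chr1:135324807-135368065 (Lmod1). The filament-binding proteins lie at chr9:67022590-67049406 (Tpm1), chr4:43514711-43523765 (Tpm2), chr9:45929619-45936058 (Tagln) and chr9:22099216-22109630 (Cnn1). The motor genes lie at chr16:14194535-14291372 (Myh11) and chr2:156775420-156781658 (Myl9), and Des at chr1:75360329-75368579.

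The promoter sequences below show the regulatory element that this gene group is known for, in 2 members that fell together with rmCIRP. RefSeq (GRCm38.p6) sequence before the transcription start was at hand for 7 of the 10 members. A CArG box was found within the 250 bases before the start of Myl9 only (1 of 7, against 1.47% of 32851 promoter windows). Allowing 1 of its central bases to differ, a search that also counts exact boxes, added Acta2 (2 of 7, against 8.59%). The motif GGAATG, read on both strands and bound by TEAD factors, stood before the start of Acta2, Tpm1 and Lmod1 (3 of 7, against 12.6%). Capitals mark these motifs. The Acta2 stretch covers bases 155 to 16 before the RefSeq start at chr19:34255389-34255528 on the minus strand and holds GGAATG and a pair of CArG-like elements. It lies inside the GENCODE M21 span of Acta2 given above, because the RefSeq start is downstream of the GENCODE start. The Myl9 stretch covers bases 170 to 81 before the start at chr2:156775294-156775383 on the plus strand and holds a CArG box and a CArG-like element. No CArG motif was found with these letters in the same window of the other members searched, which says nothing about binding elsewhere.
Acta2: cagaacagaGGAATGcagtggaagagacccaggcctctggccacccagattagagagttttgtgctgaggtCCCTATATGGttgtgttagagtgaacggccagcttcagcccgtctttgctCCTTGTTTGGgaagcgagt
Myl9: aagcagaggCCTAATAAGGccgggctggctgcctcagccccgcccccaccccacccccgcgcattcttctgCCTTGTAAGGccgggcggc

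Fibroblasts were grown from the lungs of C57BL/6 (WT) mice and of TLR4-/- mice on that background, both 4 to 8 weeks old, with 3 to 4 lungs pooled per group, and used at passages 3 to 6. After a night in reduced-serum medium they received, for 24 h, PBS as the control, rmCIRP at 1 μg/ml, rmTGF-β1 at 2 ng/ml or the pair together, and RNA was sequenced in 3 libraries per condition, 24 in all. Nothing in the labels or methods says that the 3 libraries of a condition came from separate animals or cultures, so p-values measure the spread between libraries, which may be technical, and both genotypes are each a pooled source. Each library gave between 29853346 and 39664606 reads assigned to genes. Tlr4 itself was not lower in libraries labelled TLR4-/- (903 ± 20.2 normalized counts, that is, counts divided by DESeq2 size factors for library size, with PBS, against 759 ± 41.9 in WT, SD, n = 3 each). A count over the whole gene does not test for the loss of part of it, so these are called libraries labelled TLR4-/-. All 13 fibroblast markers averaged over 50 normalized counts in each condition. In WT libraries with PBS, so did 12 of 13 macrophage, 10 of 12 mural, 5 of 7 endothelial and 6 of 6 mesothelial markers. Passing this level therefore does not tell the cell types apart. Of 8 epithelial markers, Nkx2-1 and Cldn18 reached at most 2 reads in any library, while Cdh1, Krt8 and Krt18 were read in every condition. Libraries labelled TLR4-/- carried far more macrophage RNA than WT libraries, given below with the comparison it touches.

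In WT cells with PBS, the members together took 2.05% ± 0.0793 (SD, n = 3) of all reads on genes. Per kilobase of exon, Acta2 was highest at 140657 ± 5396 normalized counts. Myl9 followed at 37743 ± 1531 per kilobase and Actg2 at 28882 ± 2224. These 3 did not overlap each other. Tpm1 (22665 ± 183), Cnn1 (17665 ± 657) and Tpm2 (15018 ± 482 per kilobase) came next, again without overlap between libraries. Myh11 reached 4216 ± 191, Lmod1 2266 ± 138 and Des 1217 ± 70.8 per kilobase. Tagln, usually among the most abundant of these transcripts, stood last with 398 ± 48.1 per kilobase and only 591 to 1065 reads per library over the 24 libraries. In GENCODE M21, 62.4% of the exon bases of Tagln lie opposite exons of the antisense gene Gm48529. Where strand is not used in counting, reads there belong to no single gene, and the strand option is not given in the sources used here, so the level and the changes of Tagln are uncertain. Acta2 and Actg2 encode nearly identical proteins, and how any reads that fit both genes were counted is not given in the sources used here.

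Treatment with rmCIRP lowered contractile genes of every role in WT cells. At an adjusted p under 0.1 (edgeR, over all genes tested), 9 of 10 members were lower than with PBS and none higher. Among all genes, 24.1% were called lower and 43.9% in either direction. The median log2 fold change was −0.41 for the members and −0.02 for all genes tested. The same 9 members had non-overlapping libraries, as did 50.8% of all genes. A fall of this kind in a culture cannot tell fewer contractile cells from less RNA per cell.

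Lmod1, the filament nucleator, fell most. Its normalized counts were 9199, 8323 and 9319 with PBS and 4331, 4259 and 3711 with rmCIRP. Every treated library lay below every control library, and on the log2 scale the change was −1.13 ± 0.19 (SE; adjusted p = 8.1e-05). Des, the intermediate filament, had 4272, 4657 and 4782 normalized counts with PBS and 2516, 2515 and 2702 with rmCIRP. It changed by −43.8%, a log2 fold change of −0.83 ± 0.09 (adjusted p = 2.1e-07). Cnn1, the calponin, had 49884, 46361 and 48745 normalized counts with PBS against 30767, 30147 and 28011. This was a change of −38.9% (log2 fold change −0.71 ± 0.13, adjusted p = 0.00015).

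The motor genes and the gamma actin fell to like degrees. Myl9 went from 43857 ± 1779 to 32108 ± 1484 normalized counts (SD, n = 3), a log2 fold change of −0.46 ± 0.10 (adjusted p = 0.00064). Myh11 went from 32036 ± 1451 to 23985 ± 1323 (−0.42 ± 0.11, adjusted p = 0.0033). The gamma actin Actg2 stood at 48270, 41365 and 45271 normalized counts with PBS and 34503, 36370 and 32220 with rmCIRP (−0.39 ± 0.10, adjusted p = 0.0041). For the tropomyosins the values were smaller. Tpm2 went from 43687 ± 1403 to 34001 ± 570 normalized counts (log2 fold change −0.37 ± 0.07), and Tpm1 from 146981 ± 1189 to 121598 ± 2656 (−0.28 ± 0.08, adjusted p = 0.011).

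Acta2, the usual myofibroblast marker, moved least among the genes called. Its normalized counts were 318757, 295742 and 312147 with PBS and 267072, 277497 and 247518 with rmCIRP. The groups did not overlap, and the log2 fold change was −0.23 ± 0.10 (adjusted p = 0.077). The call was lost without library 1 or 3 of either group (adjusted p 0.12 to 0.28), while the direction held (−0.26 to −0.17 over the 6 fits that each left out a library). For Tagln, libraries overlapped (801, 692 and 883 against 737, 665 and 638 normalized counts) and the difference was not called (−0.22 ± 0.11, adjusted p = 0.13).

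**Figure D1:**
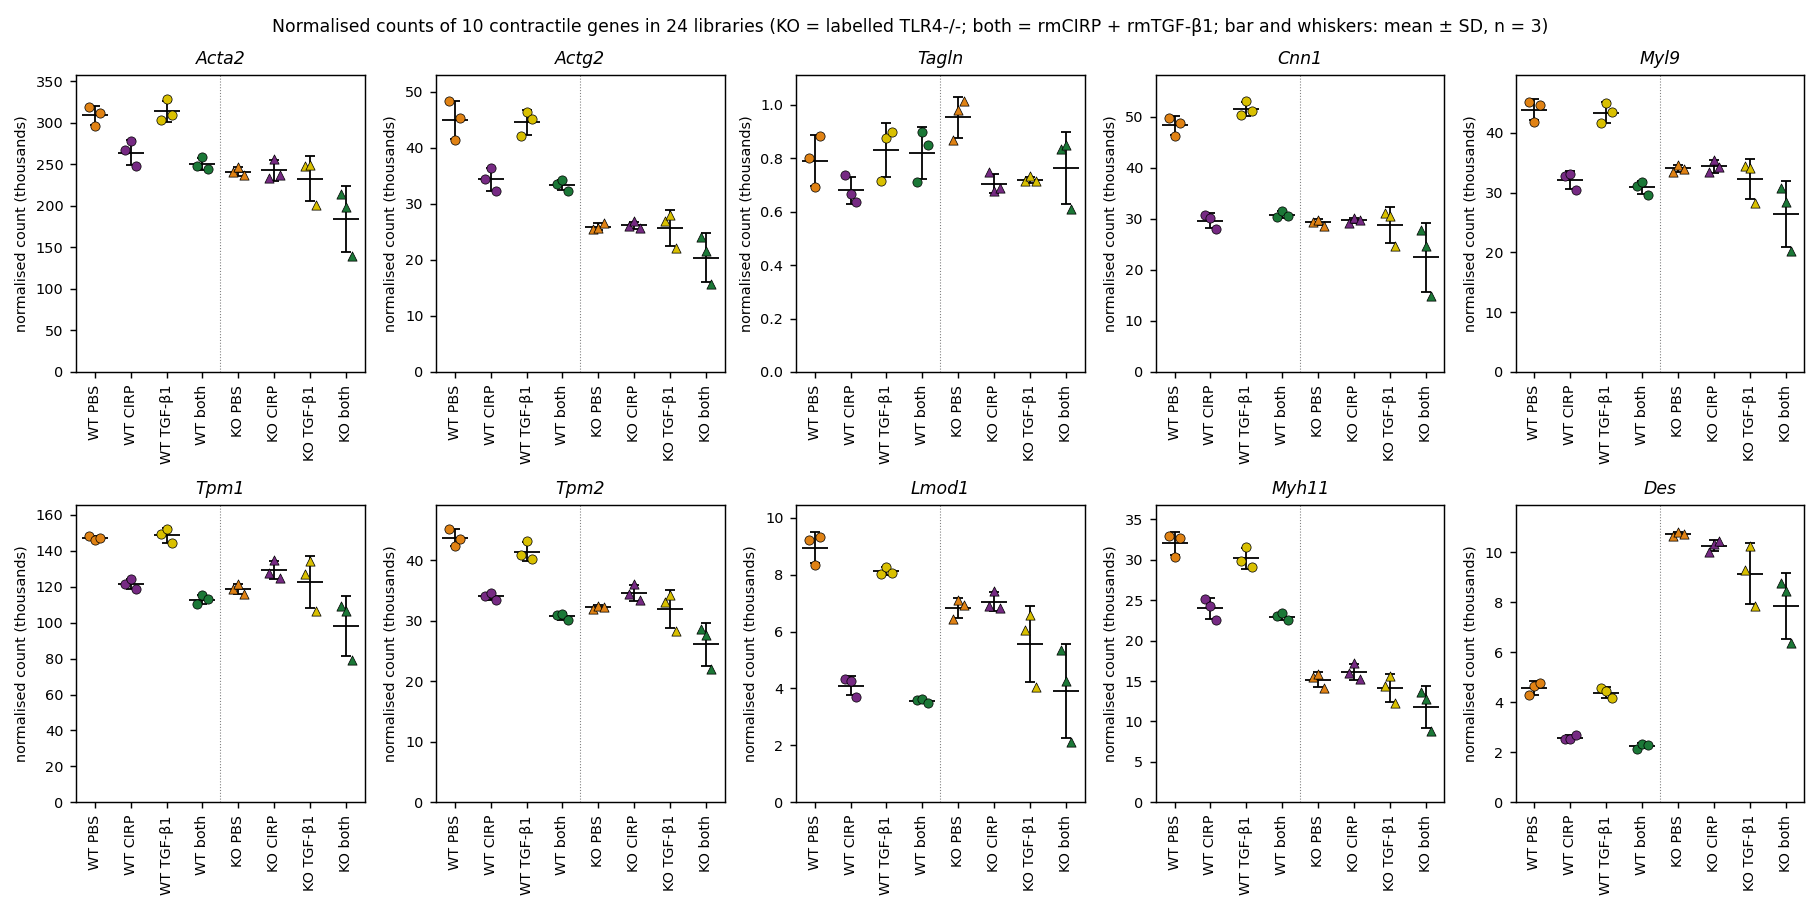
Normalized counts (in units of 1000, linear axes from 0) of the 10 contractile genes by condition. Each point is a library, circles WT and triangles libraries labelled TLR4-/-, with the mean and SD of 3 libraries; WT libraries with rmCIRP or with both sit below those with PBS or rmTGF-β1 for every gene but Tagln, and library 3 labelled TLR4-/- with both treatments is the lowest of its group in all 10 panels.

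Lists of cell type markers were read beside this fall, and their part in it was not tested. For comparison, 24.1% of all genes were called lower with rmCIRP and 43.9% in either direction. Of 13 fibroblast markers, 8 were lower and 2 higher with rmCIRP (median log2 fold change −0.35), and their summed level went from 809733 to 870151 normalized counts with PBS to 683847 to 728065. Of 13 macrophage markers, 8 were lower and 4 higher (median log2 fold change −0.32), with sums of 90051 to 98226 with PBS and 78145 to 82895 with rmCIRP. Most of these counts were of Lyz2 (mean 78180 with PBS, 62460 with rmCIRP), while Marco went from a mean of 954 to 3289. Of 11 mural (pericyte and vascular smooth muscle) markers tested, 4 were lower and 2 higher, with a median log2 fold change of 0.04. The mural sum nevertheless went from 28142 to 29435 with PBS to 22847 to 24651. It was mostly Pdgfrb (mean 18270 with PBS, 15480 with rmCIRP) and Mcam (7088 and 4435), while Trpc6 (368 and 765) and Kcnj8 (336 and 468) had higher means. These single markers were named after their values were seen.

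No change of the contractile genes was detected with rmTGF-β1 alone in WT cells. None of the 10 was called against PBS, where 12.4% of all genes were called in either direction. DESeq2 also called none of them, and none had an unadjusted p under 0.05. Acta2 had 303591, 328287 and 308796 normalized counts with rmTGF-β1, overlapping the PBS libraries. Its log2 fold change was 0.02 with a 95% interval from −0.19 to 0.23. The other members lay between −0.14 (Lmod1) and 0.09 (Cnn1). The libraries of both these genes did not overlap between groups, which held for 29.7% of all genes. When only the 6 libraries compared were fitted, Cnn1 and Lmod1 were called (adjusted p 0.080 and 0.061), as were 19.8% of all genes. Over the 8 alternatives with all libraries of the groups compared, adjusted p ran from 0.080 to 0.81 for Cnn1 and from 0.061 to 0.78 for Lmod1. The treatment itself was visible: all 7 known TGF-β target genes tested, of 8 listed, rose, from 0.10 for Ski to 0.36 for Ccn2 and 0.47 for Pmepa1 on the log2 scale. The PBS-treated WT cells already expressed the contractile genes at the levels given above.

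With both agents, contractile genes of every role were again lower in WT cells. Against rmTGF-β1 alone, 9 members were lower and none higher, where 21.7% of all genes were called lower. Lmod1 had 8035, 8272 and 8067 normalized counts with rmTGF-β1 and 3593, 3631 and 3485 with both (log2 fold change −1.19 ± 0.20, adjusted p = 5.4e-05). Des had 4550, 4453 and 4152 against 2137, 2330 and 2287 (−0.97 ± 0.09, adjusted p = 2.7e-08). Cnn1 followed at −0.75 ± 0.13, Myl9 at −0.50 ± 0.10 and Tpm2 at −0.44 ± 0.07.

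Acta2 had 247464, 258190 and 244223 normalized counts with both agents, all below its rmTGF-β1 libraries. Its log2 fold change of −0.33 ± 0.10 was called (adjusted p = 0.013), also without each of the 6 libraries in turn. Actg2 (44525 ± 2224 to 33380 ± 918 normalized counts, SD, n = 3 each, −0.42), Tpm1 (148553 ± 3975 to 112876 ± 2402, −0.40) and Myh11 (30209 ± 1288 to 22977 ± 432, −0.40) were called as well. Together the 10 genes took 2.03% ± 0.0606 of reads with rmTGF-β1 and between 1.46% and 1.54% in each library with both. Tagln did not differ detectably (−0.03, 95% interval −0.26 to 0.21). Against PBS, the combination lowered 9 members (29% of all genes were called lower), from −0.31 for Acta2 to −1.33 for Lmod1. These comparisons share libraries with those above and do not repeat them independently.

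Whether rmTGF-β1 altered the rmCIRP response was tested as an interaction. None of the members was called, and only 0.0492% of all genes were. No member had an unadjusted p under 0.05, and DESeq2 called none. Of all genes, 5.64% had such a p and DESeq2 called 0.24%. The interaction was −0.06 for Lmod1, with a 95% interval from −0.63 to 0.51, and −0.10 for Acta2, from −0.40 to 0.20. Adding rmTGF-β1 to rmCIRP changed no member at the threshold either, where 20.5% of all genes were called. There, Des (−0.20), Tpm2 (−0.15) and Tagln (0.26) had an unadjusted p under 0.05, as did 27.7% of all genes. DESeq2 called none of the members and 18.7% of all genes.

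In libraries labelled TLR4-/-, no change of the group with rmCIRP alone was detected. None of the 10 members was called, as none of all 16258 genes was (0%). Without adjustment, 6.99% of all genes and 1 of the members had a p under 0.05. DESeq2 called 32 genes, 1 of them a member (Tagln). Lmod1 had 6434, 7100 and 6927 normalized counts with PBS and 6899, 7429 and 6813 with rmCIRP, overlapping, with a log2 fold change of 0.05 (95% interval −0.34 to 0.45). Des had 10627, 10780 and 10704 against 10018, 10322 and 10425 (−0.06, interval −0.24 to 0.13). Acta2 had 240715, 246387 and 236537 against 233835, 256692 and 237522 (0.01, interval −0.19 to 0.22).

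For the remaining filament and motor genes the means were close. Cnn1 averaged 29354 ± 587 normalized counts with PBS and 29737 ± 513 with rmCIRP (SD, n = 3 each). Actg2 averaged 25918 ± 585 and 26170 ± 667, and Myl9 34017 ± 611 and 34363 ± 1026. Myh11, the smooth muscle motor, averaged 15164 ± 927 and 16114 ± 1016. The 10 genes together took 1.56% ± 0.0108 of reads with PBS and 1.61% ± 0.0663 with rmCIRP. Libraries did not overlap between these groups for 4 members, Tpm1 (0.13), Tpm2 (0.11), Des and Tagln, as for 13.7% of all genes. Tagln was at 867, 979 and 1013 normalized counts with PBS and 747, 679 and 690 with rmCIRP. Its log2 fold change of −0.43 ± 0.11 had an adjusted p of 0.34. DESeq2 and 2 other settings called it (adjusted p 1.3e-07 to 0.39 over the 8 alternatives), with the uncertainty of its counting given above.

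**Figure D2:**
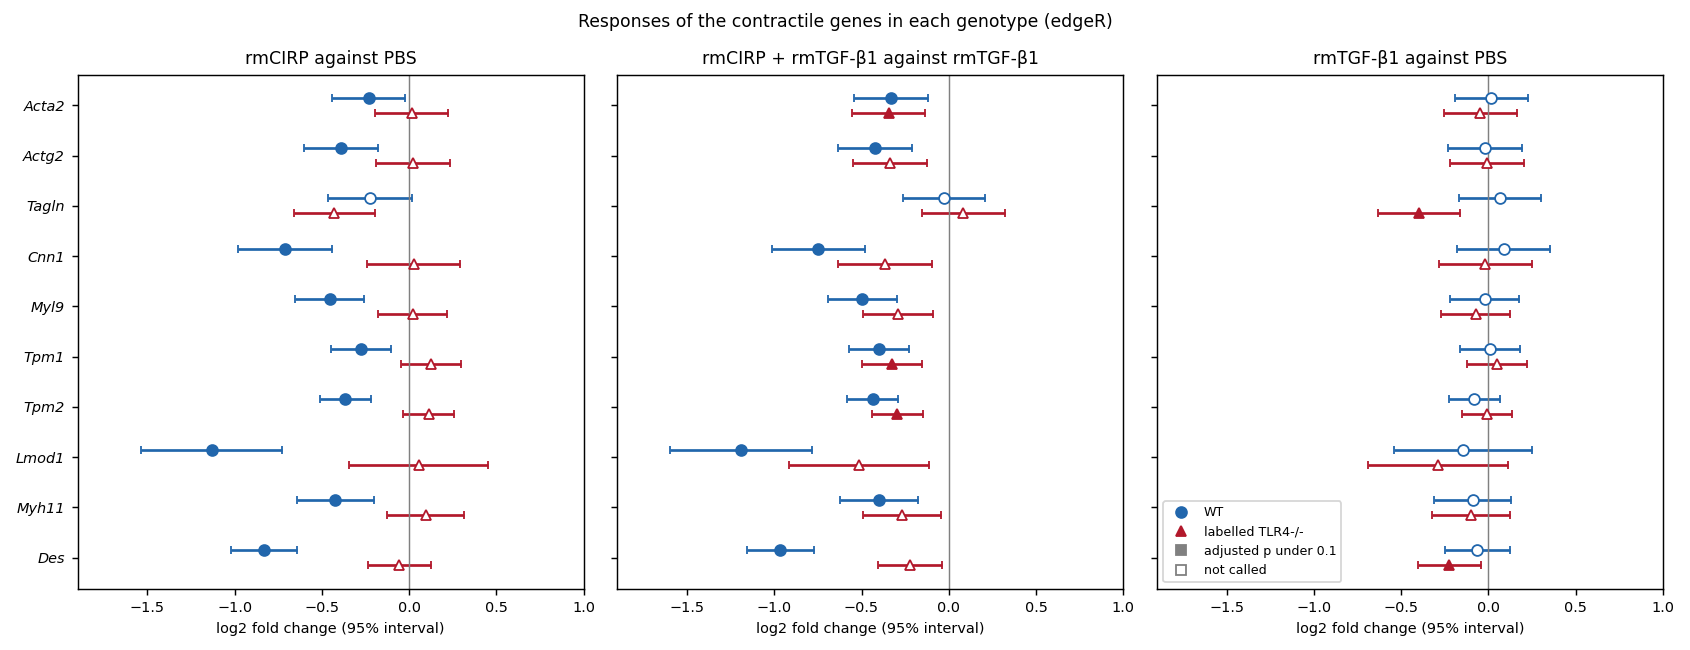
Log2 fold changes of the 10 genes with 95% intervals (edgeR) for rmCIRP against PBS, both agents against rmTGF-β1, and rmTGF-β1 against PBS. Blue circles are WT, red triangles libraries labelled TLR4-/-, and filled symbols passed an adjusted p of 0.1; in the left panel 9 WT genes are filled and lie left of 0, and no triangle is filled.

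The difference between genotypes in the rmCIRP response was tested directly. It was called for 8 members, all in the direction of a weaker fall in libraries labelled TLR4-/- (17.1% of all genes were called in that direction, 31.4% in either). The median difference was 0.48 on the log2 scale for the members and 0.03 for all genes. Lmod1 differed by 1.18 ± 0.27 (adjusted p = 0.0027), Des by 0.78 ± 0.13 (adjusted p = 9.1e-05) and Cnn1 by 0.74 ± 0.18 (adjusted p = 0.0048). Myh11 (0.52), Tpm2 (0.48), Myl9 (0.48), Actg2 (0.41) and Tpm1 (0.40) were called too. Actg2 lost its call without WT PBS library 1, WT rmCIRP library 3 or TLR4-/- rmCIRP library 2 (adjusted p 0.10 to 0.13). The difference was not called for Acta2 (0.25, 95% interval −0.05 to 0.54, adjusted p = 0.23) or for Tagln (−0.20, adjusted p = 0.39).

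The genotypes differed in these genes before any treatment, and not all in the same direction. With PBS, 7 members were lower in libraries labelled TLR4-/- and 2 higher, where 24% and 23.2% of all genes were called lower and higher. Myh11 was at 32984, 30366 and 32757 normalized counts in WT and 15452, 15912 and 14126 in the labelled libraries, a log2 difference of −1.08 ± 0.11 (adjusted p = 2.5e-08). Actg2 (−0.80 ± 0.10), Cnn1 (−0.72 ± 0.13) and Tpm2 (−0.44 ± 0.07) were lower as well. Acta2 (−0.36), Myl9 (−0.37) and Tpm1 (−0.31) showed the smallest differences among the genes called lower. For Lmod1 the libraries did not overlap, as for 51.7% of all genes, but the difference was not called (−0.39 ± 0.19, adjusted p = 0.11).

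Des went the other way. It had 4272, 4657 and 4782 normalized counts in WT and 10627, 10780 and 10704 in libraries labelled TLR4-/-, a log2 difference of 1.22 ± 0.09 (adjusted p = 1.3e-10). Per kilobase it passed from below to above Myh11 and Lmod1. Tagln was higher by 0.26 (adjusted p = 0.065) with overlapping libraries, a call lost without WT library 2 or without library 2 or 3 labelled TLR4-/- (adjusted p 0.16 to 0.24).

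The genotype cannot be told apart from the cell pool it came from. For comparison, 24% of all genes were called lower and 23.2% higher in libraries labelled TLR4-/- with PBS. In the PBS libraries, 12 of 13 macrophage markers were higher in those labelled TLR4-/- and 1 lower (median log2 difference 2.20), with sums of 341124 to 389867 normalized counts against 90051 to 98226 in WT. Of the 11 mural markers tested, 7 were lower and 2 higher, with sums of 21100 to 22632 against 28142 to 29435. Of the 13 fibroblast markers, 6 were lower and 1 higher, among them Pdgfra (mean 3455 against 7869 normalized counts in WT), named after its values were seen, although the sums overlapped (767387 to 860107 and 809733 to 870151). Of 7 endothelial markers, 5 were lower and 1 higher (median log2 difference −1.48). All 3 epithelial markers tested were higher (median 1.89), with sums over the list of 326 to 346 normalized counts against 70.8 to 115. Xist reads numbered 4403 to 6201 per library labelled TLR4-/- and at most 3 in WT libraries, while the Y-linked gene Ddx3y had 1738 to 5044 reads in every library. The part of these differences in the member levels, or in the differences between genotypes in the rmCIRP response, was not tested.

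**Figure D3:**
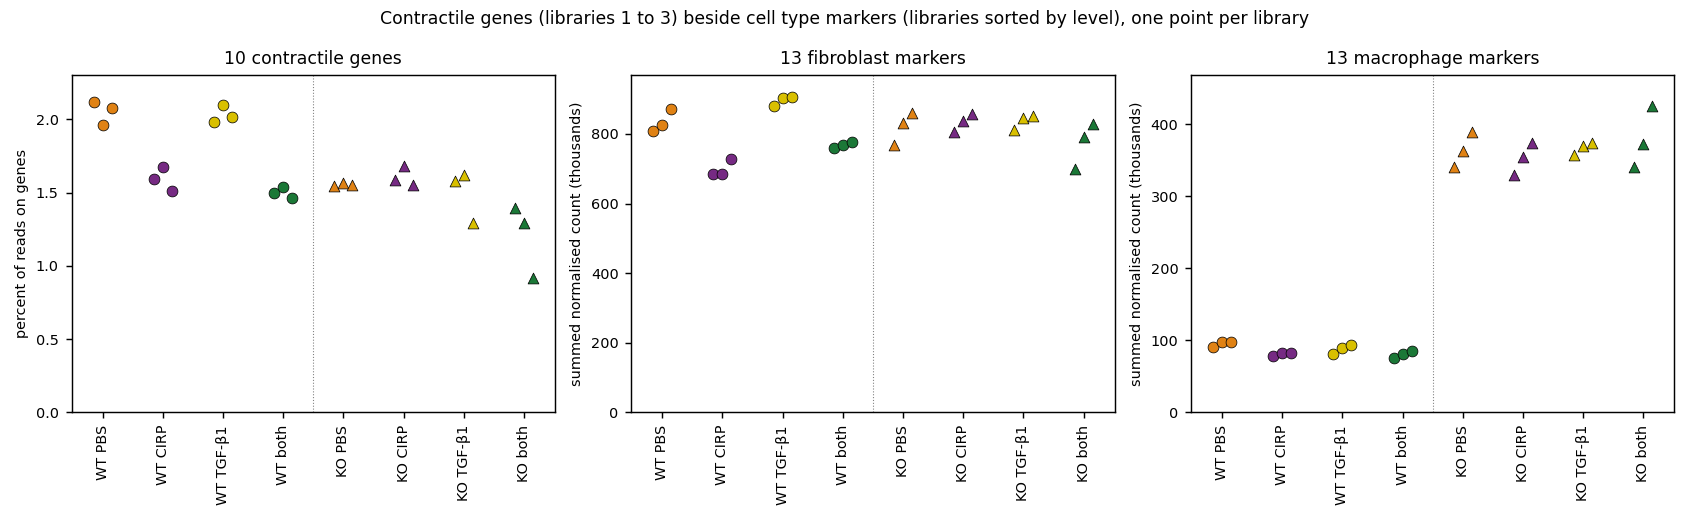
Left, the percent of all reads on genes taken by the 10 contractile genes in each library. Middle and right, summed normalized counts (in units of 1000) of 13 fibroblast and 13 macrophage markers, libraries sorted by level within a condition; the contractile share is 1.51% to 1.67% in WT with rmCIRP against 1.96% to 2.12% with PBS, and the macrophage sums of all libraries labelled TLR4-/- lie above all WT libraries.

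In libraries labelled TLR4-/-, rmTGF-β1 alone was followed by 2 lower members and no higher one, where 11.7% of all genes were called lower. Tagln had 714, 733 and 713 normalized counts, below all PBS libraries (−0.40 ± 0.11, adjusted p = 0.017). Des had 9298, 10249 and 7846 (−0.22 ± 0.09, adjusted p = 0.084), a call lost in 5 of the 6 fits that left out a library (adjusted p 0.12 to 0.41). Acta2 was just above its PBS libraries in libraries 1 and 2 (248296 and 248723 normalized counts) and below them in library 3 (201060). The 7 TGF-β target genes all rose here as well. The difference between genotypes in the rmTGF-β1 response was called for no member and for 0.0861% of all genes. Tagln (−0.47, adjusted p = 0.29) was the only member with an unadjusted p under 0.05, and DESeq2 called none.

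The rmCIRP response in the presence of rmTGF-β1 rested on single libraries in cells labelled TLR4-/-. Lmod1 had 6043, 6581 and 4065 normalized counts with rmTGF-β1 and 5351, 4258 and 2101 with both. Acta2 had 213815, 198599 and 139288 with both. In each group library 3 was the lowest for both genes, and with both agents it held 43.7% (Lmod1) to 78.2% (Tpm2) of the mean of the other libraries over the 10 members. In the same library the fibroblast marker sum was at 86.2% of the others, the mural sum at 93.1%, the macrophage sum at 119% and the endothelial sum at 173%. Their part in its low contractile levels was not tested.

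With all libraries, Tpm2 (−0.30 ± 0.07, adjusted p = 0.073), Tpm1 (−0.33 ± 0.08, adjusted p = 0.074) and Acta2 (−0.34 ± 0.10, adjusted p = 0.098) were called lower with both agents than with rmTGF-β1, where 1.13% of all genes were called lower. All 10 members overlapped between these groups. Without library 3 with both agents, no member was called and 1 gene of all was. Leaving out also library 3 with rmTGF-β1, a choice made after seeing the data, 8 members were called lower, all but Tagln and Myh11, from −0.19 for Des to −0.40 for Lmod1, where 1.75% of all genes were called lower. The calls also ended without rmTGF-β1 library 1 or 2 (adjusted p 0.22 to 0.41). Without rmTGF-β1 library 3, 9 members were called lower, where 5.56% of all genes were. Without library 1 with both agents, 9 were called lower (7.08% of all genes), and without library 2 with both agents 5 were (1.72%).

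Between genotypes, the response to rmCIRP under rmTGF-β1 differed for Des alone, by 0.74 ± 0.13 (adjusted p = 0.00021), where 20.9% of all genes were called. Lmod1 (0.68, adjusted p = 0.10) and Cnn1 (0.38, adjusted p = 0.17) had the same direction. Without TLR4-/- library 3 with both agents, 8 members differed, among them Lmod1 (0.98), Des (0.88) and Cnn1 (0.61), where 27.5% of all genes were called. Without library 3 of both groups 6 did, with Lmod1 at 0.79, Des at 0.77 and Cnn1 at 0.51, where 23.7% of all genes were called. Acta2 was called in none of these fits (−0.01 with all libraries, 95% interval −0.31 to 0.28).

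Other genes of the contractile apparatus were read from a list of 28, of which 27 could be tested. With rmCIRP in WT cells, 21 were lower and 1 higher, Tpm3 (median log2 fold change −0.28), where 24.1% of all genes were called lower. The largest falls among the called genes were those of the non-muscle myosin heavy chain Myh10 (−0.999 ± 0.151), the myosin light chain kinase Mylk (−0.92 ± 0.17) and the actin-bundling adaptor Csrp1 (−0.64 ± 0.11). Cytoskeletal genes that every cell uses fell too, among them Actb (−0.38) and Flna (−0.24), which were named after their values were seen. With rmCIRP on top of rmTGF-β1, 23 were lower and 1 higher, where 21.7% of all genes were called lower. The largest falls were those of Mylk (−0.99), Myh10 (−0.88) and Synpo2 (−0.74). With rmTGF-β1 alone, Tagln2 (0.15) and Smtn (0.14) rose and Tln1 fell by 0.10 on the log2 scale, where 12.4% of all genes were called in either direction.

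In libraries labelled TLR4-/-, rmCIRP alone was followed by no call in this list, and 2 of the 27 had an unadjusted p under 0.05. Of all genes, 0% were called there and 6.99% had such a p. The difference between genotypes was called for 20 of the 27, higher for 19, where 31.4% of all genes were called and 17.1% called higher. With PBS, 17 of the 27 were lower in libraries labelled TLR4-/- than in WT and 2 higher. Of all genes, 24% were called lower there and 23.2% higher.

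**Figure D4:**
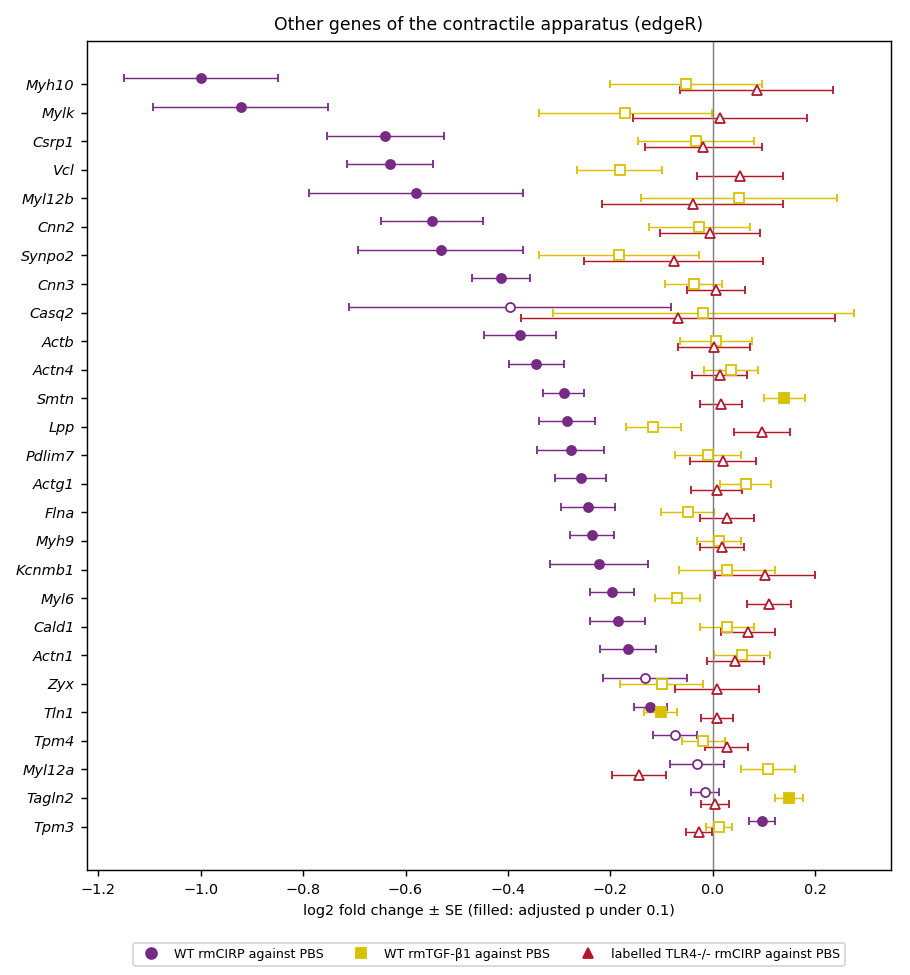
Log2 fold changes ± SE of 27 further contractile and actin-cytoskeleton genes, ordered by the WT response to rmCIRP. Filled symbols passed an adjusted p of 0.1; the purple circles (WT, rmCIRP) lie left of 0 for all but Tpm3, and no red triangle (labelled TLR4-/-, rmCIRP) is filled.

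Genes listed as regulators of this group were read in the same comparisons, and their part in the member levels was not tested. Of 16 genes listed as regulators, among them SRF, its coactivators and TEAD factors, 14 were tested. With rmCIRP in WT cells, 12 were lower and 1 was higher, Wwtr1 (0.10), where 24.1% of all genes were called lower. The TEAD factor Tead3 fell by 0.76 on the log2 scale, Klf4, a repressor of smooth muscle genes, by 0.44, and Ppp1r14a, an inhibitor of myosin phosphatase, by 0.43. Srf itself was at −0.40 ± 0.09 (adjusted p = 0.00074), named after its value was seen. Under rmTGF-β1, 10 were lower and 1 higher, where 21.7% of all genes were called lower. Among genes averaging 50 or more normalized counts, the largest falls were those of Ppp1r14a (−0.69), Tead3 (−0.57) and Klf4 (−0.48). The coactivator gene Myocd lay below that limit, with a mean of 44.0 normalized counts, and was named after its values were seen. It was called at −0.78 with rmCIRP in WT cells (adjusted p = 0.016) and at −1.20 under rmTGF-β1 (adjusted p = 0.00086), the largest fall of the list in both. rmTGF-β1 alone lowered 1, the kinase gene Rock2 (−0.27), where 12.4% of all genes were called in either direction. No regulator was called with rmCIRP in libraries labelled TLR4-/-, as 0% of all genes were. The difference between genotypes was called for 10, all higher, where 17.1% of all genes were called higher. In the labelled libraries, rmTGF-β1 alone was followed by 5 lower regulators and none higher (11.7% of all genes were called lower). Adding rmCIRP to rmTGF-β1 there gave 1 higher and none lower (1.13% of all genes were called lower). With PBS, 6 were lower than in WT and none higher (24% of all genes were called lower).

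Across the 24 libraries, 8 members formed 1 pattern and Des and Tagln others. Pearson's r of log2 normalized counts between pairs of the 8 ranged from 0.46 to 0.98 with a median of 0.90. Des correlated with the other members at −0.65 to 0.37, and Tagln at 0.14 to 0.37. These values describe 24 libraries of 8 conditions that share the genotype and treatment steps. The genes outside the group whose pattern was most like that of Acta2 were Tfpi (r = 0.98), Qsox1 (0.98), Epha4 (0.98), Anxa6 (0.97) and Avpr1a (0.97). Those most like Des were Anxa3 (r = 0.99), Skap2 (0.99), Pea15a (0.99), Txnip (0.98) and Ccnd1 (0.98).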

How the data were processed

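The 24 libraries were made from fibroblast RNA with a stranded total RNA preparation and sequenced. The authors checked reads with FastQC, aligned them with STAR2 to mouse GENCODE and deposited raw counts per gene from ht-seq, without normalization. The submitters' processing notes name the build NCBIM37. The GENCODE release and the strand option are not given in the sources used here. The 5 tally lines for reads assigned to no single gene (14.5% to 16.1% of reads, of which ambiguous reads made 4.57% to 5.23%) were left out. Replicates were not pooled in the files.

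Genes were tested in R 4.3.3 with edgeR 4.0.16: filterByExpr kept 16258 of 34285 genes with any count, libraries were scaled by TMM, and glmQLFit was run once on the 24 libraries, with 1 coefficient per condition (8 in all). Over 13 contrasts, quasi-likelihood F-tests were adjusted by Benjamini-Hochberg over all genes tested, with a threshold of 0.1. The SE was taken as the absolute fold change (log2) over √F. Levels are counts divided by DESeq2 1.42.0 size factors, and correlations used log2(normalized count + 1). Exon lengths and overlaps came from GENCODE M21, and promoter sequences from RefSeq GRCm38.p6, both builds other than the one the notes name. The common biological coefficient of variation was 0.0571. On simulated data in which all genes shared the same spread, 93% of changes of 0.5 on the log2 scale were recovered for WT rmCIRP against PBS (100 changed genes of that size among 15941). That share does not describe members with a larger spread, such as Lmod1 (SE 0.19 in that comparison).

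Genes were named by rule: all 10 members, the 3 largest called changes averaging 50 or more normalized counts from each of 2 lists (other contractile genes, regulators) in 3 WT comparisons, Tlr4, known TGF-β targets, and the 5 genes most correlated with Acta2 and with Des. The members and lists were chosen with earlier results of these data known, so their counts are descriptions and no list was tested as a set. Alternatives were DESeq2, RLE, total count and upper quartile scaling, no filter, a mean count of at least 10, only the libraries compared, the replicate number as a block, and leaving out each library.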

Additional observations from a re-analysis of the deposited data

Results flagged for a closer look

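Beyond the main comparisons, the genotypes' unequal rmCIRP responses (log2 scale, libraries labelled TLR4-/- minus WT, edgeR) stood out because the test of this difference itself passed an adjusted p of 0.1. This was so for Lmod1 (1.18), Des (0.78), Cnn1 (0.74), Myh11 (0.52), Tpm2 (0.48), Myl9 (0.48), Actg2 (0.41) and Tpm1 (0.40). In the presence of rmTGF-β1, Des differed in the same way (0.74). With 3 libraries per condition, no rule was used to search for single libraries far from their group. Library 3 labelled TLR4-/- with both agents, described above, was singled out after its values were seen.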

How the results depend on the processing

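Over the 10 members and 13 comparisons, 74 of 2100 values under the alternatives changed sign, none of them called in either fit. Among the 1169 that bear on values given in the text, 20 did. With other settings these were Acta2 for WT rmTGF-β1 against PBS under total count scaling (−0.0016), and Tagln for both agents against PBS under total count (−0.0087) and upper quartile scaling (−0.021). Acta2 for the genotype difference in the rmCIRP response under rmTGF-β1 was also among them, under total count (0.026) and upper quartile scaling (0.021) and without library 3 of both groups (0.056). Leaving out 1 library gave ranges of −0.019 to 0.057, −0.038 to 0.15 and −0.13 to 0.16 for these values, of −0.13 to 0.070 for Tagln with both agents against rmTGF-β1, and of −0.036 to 0.036 for Acta2 with rmCIRP in libraries labelled TLR4-/-. The number of members called stayed within 1.5 times for rmCIRP in WT (9, and 8 to 10 without a library), both agents against PBS or rmTGF-β1, the genotypes with PBS, their difference in the rmCIRP response (8, and 7 to 8 without a library) and the WT interaction. Without a library, 36.3% to 39.9% of all genes were called for rmCIRP in WT and 25.7% to 29.9% for that difference.

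Other counts moved, and the cause was not tested. Fitting only the libraries compared gave 2 members for WT rmTGF-β1 (none in the reported fit) and 5 for rmTGF-β1 added to rmCIRP (none). Of all genes, 19.8% and 30.6% were called. In libraries labelled TLR4-/- it gave 1 for rmCIRP (none) and 0 for both agents against rmTGF-β1 (3), where 0.191% and 0% of all genes were called. With no filter on low counts, these last 3 comparisons had 5, 1 and 9, where 9.15%, 0.435% and 4.61% of all genes were called. There rmTGF-β1 in libraries labelled TLR4-/- had 4 (2 reported), with 10.4% of all genes called. The genotype differences in the response to rmTGF-β1 and to rmCIRP under it had 1 (none) and 4 (1). Of all genes, 1.64% and 9.23% were called for these differences. DESeq2 gave 1 for rmCIRP and 5 for both agents against rmTGF-β1 in libraries labelled TLR4-/- (0.197% and 5.68% of all genes). Total count and upper quartile scaling each gave 2 for the genotype difference under rmTGF-β1 (22.7% and 21.9% of all genes). Leaving out 1 library gave 0 to 1 for rmTGF-β1 added to rmCIRP (14.3% to 16.8% of all genes). In libraries labelled TLR4-/- it gave 1 to 2 for rmTGF-β1 (15.2% to 22.9%) and 0 to 9 for both agents against rmTGF-β1 (0% to 16.2%). For the genotype difference under rmTGF-β1 it gave 1 to 8 (16.7% to 27.5%). Leaving out library 3 of both groups labelled TLR4-/- with rmTGF-β1, chosen after seeing the data, gave 8 and 6 for the last 2 (3.96% and 23.7% of all genes).

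Libraries with the same replicate number did not deviate together (mean correlation 0.0111 over 84 pairs, −0.111 to 0.350), so the numbers were not taken to pair them. With the replicate number as a block, 1 member was called for rmTGF-β1 added to rmCIRP in WT (21% of all genes). For both agents against rmTGF-β1 in libraries labelled TLR4-/-, 6 were called (4.98%). The genotype difference under rmTGF-β1 had 2 (21.2%), and the genotypes with PBS had 10 (47.3%).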

Other observations

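The 5 genes most like Acta2 were picked by their correlation with it, so their following it in level was fixed in advance. Epha4 had 2340 ± 77.9 normalized counts (SD, n = 3) in WT with PBS, 1720 ± 126 with rmCIRP and 1390 ± 84.0 in libraries labelled TLR4-/- with PBS. In the same order, Avpr1a had 1092 ± 37.8, 780 ± 130 and 707 ± 27.0. Values were closer together for Tfpi (6994 ± 274, 6451 ± 63.3 and 6060 ± 142). The same held for Qsox1 (13411 ± 447, 11706 ± 459 and 11566 ± 194) and Anxa6 (22284 ± 875, 19393 ± 219 and 18803 ± 285). Anxa3, picked in the same way for Des, was at 8257 ± 527, 6469 ± 141 and 11777 ± 64.7. Acta1, the skeletal muscle actin, fell outside the rule for naming genes. It averaged 6023 normalized counts in WT cells given PBS, 8317 with rmTGF-β1, 2225 after rmCIRP and 3159 after the combination. With rmTGF-β1 alone in WT cells, none of the 3 striated muscle markers tested was called. Sums over the list of 8 overlapped, at 4692 to 7858 normalized counts with PBS and 6780 to 9431 with rmTGF-β1. With rmCIRP alone, 1 of the 3 was lower and none higher (24.1% of all genes were called lower). Myh6, the cardiac myosin gene on that list, reached at most 2 reads in any library. Reads on the antisense gene Gm48529, which lies opposite Tagln, numbered 71 to 227 per library.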
